A study of Mus musculus with 20 samples.

Results

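The response of wild-type (WT) eyes to a diet without vitamin A was followed in the RNA of the outer eyecup, the retinal pigment epithelium (RPE) with the choroid behind it. The members are 10 of the 20 libraries of the series, chosen by genotype and diet alone. Of these, 5 were from WT mice on the vitamin A deficient diet (VAD WT, 0 IU vitamin A per g) and 5 were from WT mice on the vitamin A sufficient diet (VAS WT, 4 IU per g). All 10 mice were C57BL/6 by the labels (C57BL/6J in the study's methods), were raised with their dams on standard chow, and received their diet for 12 weeks from weaning; neither the sex of a mouse nor its cage is given in the labels. According to the study's methods, the anterior segment and the neural retina were removed and both eyecups of a mouse were pooled. The other 10 libraries came from *Stra6*-/- mice, which lack the RPE receptor for circulating retinol, and entered 1 alternative fit, its DESeq2 counterpart without VAD *Stra6*-/- replicate 1, and part of the rule that chose the named genes.

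Vitamin A reaches the eye as retinol on its plasma carrier and is taken up by the RPE through STRA6. LRAT esterifies it as the store from which the visual cycle makes the chromophore of the photopigments. A second product, retinoic acid, binds retinoic acid receptors and switches genes on, among them genes that take up, store and break down retinoids. In textbook vitamin A deficiency the wet epithelia of the conjunctiva and cornea lose mucins and antimicrobial secretions and keratinize, and the rods later run short of chromophore.

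The values analysed are gene counts divided by 1 size factor per library, called normalized values here. They rest on 13331903 to 18764909 reads per library over 24411 genes, and they allow a gene to be compared between libraries but not with another gene. The diets were compared gene by gene in limma, on log2(value + 1), for the 18309 genes that had at least 5 reads in the 10 libraries together. Changes are given as the log2 fold change of VAD WT over VAS WT ± its standard error, with limma's p adjusted by Benjamini-Hochberg over all these genes. A gene is called higher or lower in VAD WT at an adjusted p under 0.05. The labelled tissue was checked against its markers. In VAS WT the RPE gene *Ttr* stood at 47574 to 55894 and *Rgr* at 27735 to 32069, while *Best1*, a chloride channel of the RPE, was at 11.7 to 44.6. The defining gene of corneal epithelium, the keratin *Krt12*, stood at 142834 to 194875, and 20 rod genes together at 186754 to 213563. The libraries thus also held transcripts of cornea and retina, tissues that were dissected away.

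The VAD WT libraries did not form 1 group. On the first principal component of the 500 most variable genes, which carried 30.8% of the variance, VAS WT libraries scored from -10.7 to -4.95. Replicates 1, 3 and 5 of VAD WT scored 31.8, 27.8 and 41.1, and replicates 2 and 4 scored -28.0 and -29.6. The chi-square per gene between recovered reads, which is 1 for counting noise alone, was 7.76 between replicates 2 and 4, 7.10 to 11.1 among replicates 1, 3 and 5, and 161 to 202 across these sets. It was 7.93 to 16.5 within VAS WT and 65.7 to 112 between VAS WT and VAD WT. No pair of libraries therefore agreed within counting noise, so no library was taken for a copy of another.

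The same split was seen in sex-linked transcripts. *Xist*, the RNA that coats the inactive X chromosome of female cells (chrX:103460366-103483254, GRCm38, as for all gene positions here), had values of 18.7, 7.69, 15.6, 19.5 and 38.4 in VAS WT replicates 1 to 5. In VAD WT replicates 1, 3 and 5 it stood at 174, 194 and 234, and in replicates 2 and 4 at 10912 and 11767. The Y-linked *Eif2s3y* was 1050.4 to 1128 in VAS WT, 1439 to 1676 in VAD WT replicates 1, 3 and 5, and 118 and 112 in replicates 2 and 4. *Ddx3y*, also on the Y chromosome, gave 981 to 1193, 1041 to 1133 and 75.2 and 80.5 in the same order. All 5 VAD WT libraries held both *Xist* above the VAS WT range and Y-linked RNA above 0, and *Xist* was called higher (5.75 ± 1.21, adjusted p = 0.0244). This call was lost for *Xist* without any 1 VAS WT library (adjusted p up to 0.0753). In replicates 2 and 4 diet and sex-linked RNA cannot be told apart. Whether RNA of mice of both sexes was mixed in a VAD WT library, or a library mislabelled, was not tested, and every VAD WT value carries this limit. Values are therefore given by library, or with replicates 2 and 4 apart, for the genes the results turn on. For other genes the range over the 5 VAD WT libraries is given, or the fit alone.

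**Figure D1:**
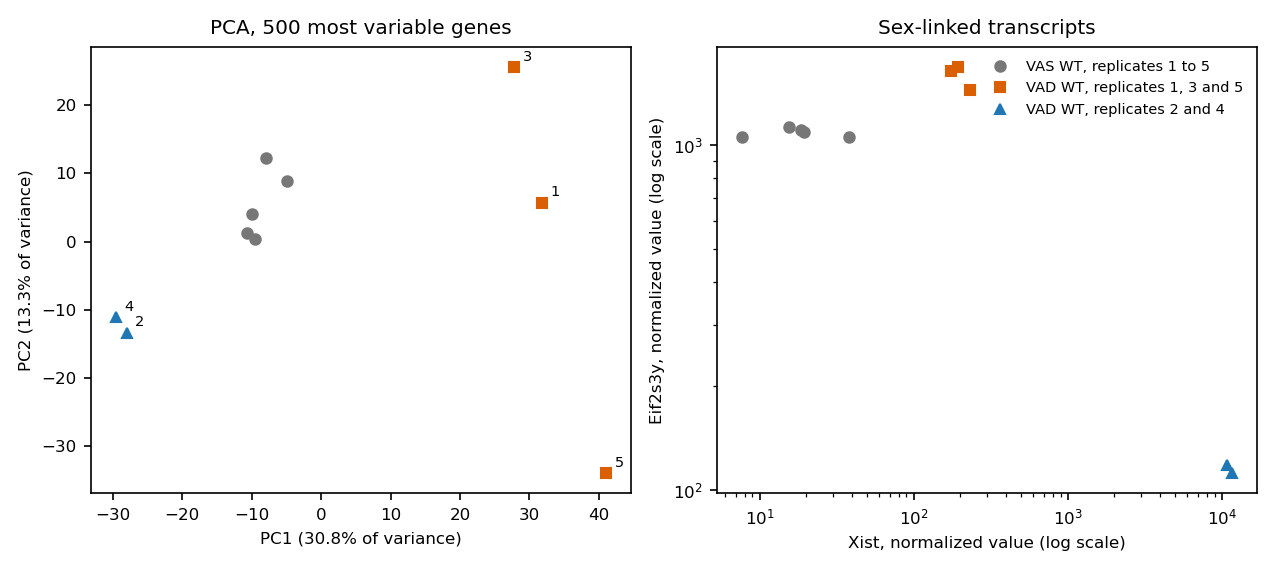
Left, scores of the 10 libraries on the first and second principal components of log2(value + 1) for the 500 most variable genes, with VAD WT replicate numbers beside the points. Right, normalized values of *Xist* against *Eif2s3y* on log axes. Replicates 2 and 4 of VAD WT (triangles) lie on the other side of VAS WT (circles) from replicates 1, 3 and 5 (squares) on PC1, and hold *Xist* at 10912 and 11767.

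A direct link from vitamin A to a gene runs through retinoic acid response elements, in the best known form a direct repeat of a receptor half-site with 5 bases between the copies (DR5). The half-site was searched as AGGTCA and AGTTCA and as the same letters starting with G, with the repeat on both strands, in RefSeq windows from 250 bases before to 50 bases after each start (GRCm38.p6). Of 32851 such windows, 32 held a DR5 repeat (0.0974%). Of the 12 genes listed here as retinoic acid responsive, 8 had windows, and *Rarb* (retinoic acid receptor beta) and *Cyp26a1* (the retinoic acid hydroxylase that clears it) held the repeat. None of the 373 windows matched to genes called lower, from 287 of 404 genes, and none of the 140 matched to genes called higher, from 108 of 150, held it. These letters are simply not in those windows. The 80 bases just before the start are printed for the 2 genes with the repeat, half-sites in capitals, and for *Lrat*, the listed response gene with the largest fall, which has none in its window. They run 5′ to 3′ on the gene's strand. *Rarb* lies on the minus strand at chr14:16575477-16575556, *Cyp26a1* on the plus strand at chr19:37697728-37697807 with its repeat reading on the opposite strand, and *Lrat* on the minus strand at chr3:82903975-82904054.
Rarb: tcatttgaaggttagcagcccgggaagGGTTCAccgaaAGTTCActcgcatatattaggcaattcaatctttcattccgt
Cyp26a1: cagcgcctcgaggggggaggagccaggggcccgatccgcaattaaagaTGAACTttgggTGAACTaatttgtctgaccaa
Lrat: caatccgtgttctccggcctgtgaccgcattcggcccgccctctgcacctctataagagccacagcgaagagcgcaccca
The repeat spans positions -53 to -37 in *Rarb* and -32 to -16 in *Cyp26a1*, counted back from the start.

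Neither of these 2 genes was called, and both followed the split of the VAD WT libraries. *Cyp26a1* was 236, 205, 172, 196 and 203 in VAS WT replicates 1 to 5 and 29.5, 51.1 and 24.7 in VAD WT replicates 1, 3 and 5, but 276 and 369.7 in replicates 2 and 4. Replicates 1, 3 and 5 thus lay far below the VAS WT range and replicates 2 and 4 above it, and the fit over all 5 gave -1.27 ± 0.68, adjusted p = 0.424. *Rarb* was 338, 351, 329, 331 and 430.2 in VAS WT, 209.8, 243 and 253 in VAD WT replicates 1, 3 and 5, and 341 and 392 in replicates 2 and 4. In the latter it stayed inside the VAS WT range, and the fit gave -0.34 ± 0.18, adjusted p = 0.418. *Cyp26b1*, a second retinoic acid hydroxylase, showed the same order, with 615 to 823 in VAS WT, 153, 248 and 272 in replicates 1, 3 and 5, and 972 and 875 in replicates 2 and 4. *Dhrs3*, which returns retinaldehyde to retinol, was lower in every VAD WT library (2533 to 3112 against 3301 to 3626) and missed the threshold at -0.32 ± 0.08, adjusted p = 0.0527. *Lrat* was the exception among the printed genes. It fell from 1829.9, 1612, 1804, 1735 and 1975 in VAS WT replicates 1 to 5 to 263, 821, 414, 941 and 317 in VAD WT replicates 1 to 5 (-1.88 ± 0.31, adjusted p = 0.00592). The groups did not overlap, and replicates 2 and 4 lay nearest to VAS WT.

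Over all genes, 554 of 18309 (3.03%) were called in VAD WT against VAS WT, 150 higher (0.819%) and 404 lower (2.21%). These shares are the background for the counts of called list members below. The falls were also the larger changes, since 142 genes fell and 24 rose by more than 1 on the log2 scale. In 542 of the 554 genes (2.96% of those tested) the 5 and 5 libraries did not overlap, against 2.18% (higher) and 4.33% (lower) of all genes tested. The count depends on which libraries are fitted. With all 20 libraries in the fit 1660 genes (9.07%) were called, 620 higher (3.39%) and 1040 lower (5.68%). Without VAD WT replicates 2 and 4, 6708 of 18226 genes (36.8%) were called. With replicates 2 and 4 as the only VAD WT libraries, a fit added after the values were seen, 6005 of 18237 (32.9%) were called. Leaving out any 1 VAS WT library lowered the count to between 281 and 329. The fit takes 1 spread per gene for both diets, so with fewer VAS WT libraries the wider VAD WT spread weighs more. A call lost in this way need not single out that VAS WT library. Where the call of a named gene was lost with 1 library left out, the library and the highest adjusted p are given with the gene. In addition, edgeR did not call *Adra2c*, *Guca1a*, *Lyz2* and *Ttn*, limma without its intensity trend lost 24 of 90 named calls, and the fit over all 20 libraries lost *Pigr*. Among 12501 genes with a mean of at least 100 in a group, all 5 VAD WT libraries lay above the VAS WT range in 376 and below it in 730. Replicates 1, 3 and 5 lay above that range with 2 and 4 below it in 1310 genes (10.5%), and the reverse held in 1210 (9.68%). Genes on opposite sides were thus more numerous than genes on the same side, and the calls are mostly the latter. Since the samples are whole tissue, fewer cells of a type and less RNA per cell cannot be told apart in any value that follows.

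Several of the largest falls were in genes of mucosal secretion. *Ltf*, which encodes lactoferrin, the iron-binding antimicrobial protein of tears (chr9:111019271-111042767), was 779, 952, 919, 760.0 and 840.0 in VAS WT and 92.0, 94.8, 89.4, 107 and 109 in VAD WT, in replicate order. It fell 8.55-fold (-3.10 ± 0.13, adjusted p = 2.28e-07), with replicates 2 and 4 level with the rest. *Olfm4*, olfactomedin 4, a secreted protein of mucosal crypts, was 278, 193, 289.9, 205 and 198 in VAS WT and 7.07, 42.2, 15.6, 39.4 and 16.9 in VAD WT (-3.45 ± 0.43, adjusted p = 0.00105). It was lowest in replicates 1, 3 and 5.

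*Clca3b*, a secreted protein of the CLCA family, was 333, 415, 264, 310.2 and 340.1 in VAS WT against 66.0, 19.6, 104, 5.14 and 71.5 in VAD WT. It was lowest in replicates 2 and 4 (-3.18 ± 0.64, adjusted p = 0.0199). *Pigr*, the receptor that carries immunoglobulin A across mucosal epithelium, fell from 204 to 251 to 92.0, 111 and 133 in replicates 1, 3 and 5 and to 62.8 and 39.4 in replicates 2 and 4 (-1.51 ± 0.30, adjusted p = 0.0172). *Wfdc18*, a small secreted WAP-domain protein, fell from 176 to 217 to 6.50 to 74.5 (-2.64 ± 0.50, adjusted p = 0.0135). Left-out libraries ended the calls of *Clca3b* without any 1 VAS WT library (adjusted p up to 0.0625) and *Pigr* without VAS WT replicate 1, 3, 4 or 5 (adjusted p up to 0.0571). These 5 were the members called among 22 tested of 25 listed mucosal defence genes, all lower. The median log2 fold change of the list was -0.54 beside 0.01 over all genes. Without replicates 2 and 4 the list had 4 higher and 10 lower, and with these as the only VAD WT libraries also 4 and 10. In these fits 18.3% and 16.6% of all genes were higher and 18.5% and 16.3% lower. The summed level of the list moved the other way in 3 libraries, at 97164 to 100035 in VAD WT replicates 1, 3 and 5 against 25574 to 31857 in VAS WT. The corneal members *Slurp1* and *Lypd2*, both of the Ly6 family, hold most of that sum. *Slurp1* was 6646 to 9231 in VAS WT, 30980.5 to 33540.4 in replicates 1, 3 and 5, and 5671 and 5579.5 in replicates 2 and 4. *Lypd2* gave 13072 to 17123, 60951 to 61486 and 10438 and 9257 in that order.

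Among the mucins, 3 membrane-bound ones fell in every VAD WT library. *Muc1*, a cell-surface mucin of the ocular surface (chr3:89229057-89233381), was 2724, 2788, 2694, 2586 and 2574 in VAS WT and 803, 542, 752, 472 and 688 in VAD WT (-2.06 ± 0.14, adjusted p = 6.53e-06). *Muc4*, a membrane mucin of conjunctiva and cornea, was 26673 to 30275 in VAS WT, 18410.1, 17483 and 18481 in VAD WT replicates 1, 3 and 5, and 8578 and 8728 in replicates 2 and 4 (-1.06 ± 0.24, adjusted p = 0.0349). *Muc20* gave 3019.8 to 3512, 1931, 2155 and 2281 and 1168 and 1066 in the same order (-1.01 ± 0.20, adjusted p = 0.0187). The calls of 2 of them were lost with 1 library left out, *Muc4* without any 1 VAS WT library (adjusted p up to 0.1) and *Muc20* without VAS WT replicate 1, 2, 3 or 4 (adjusted p up to 0.0613). The secreted mucin of goblet cells, *Muc5ac*, was not called. It was 29.5, 6.73, 11.7, 14.6 and 13.4 in VAS WT, 0, 15.6 and 0 in VAD WT replicates 1, 3 and 5, and 56.7 and 73.6 in replicates 2 and 4. In the goblet cell and mucin list, 3 of 11 were thus lower and none higher, where 2.21% of all genes were lower. The list median was 0.05.

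Keratins of simple and wet stratified epithelia fell with them. *Krt4*, a keratin of non-keratinizing mucosa such as the conjunctiva (chr15:101918535-101924735), was 41572, 44533, 40929, 39259 and 40120.0 in VAS WT and 10768, 11551, 10678, 12018 and 10716 in VAD WT (-1.89 ± 0.12, adjusted p = 5.20e-06). The 5 VAD WT values lay within a narrow band, 3.70-fold below VAS WT. Its usual partner *Krt13* was 40855 to 45988 in VAS WT, 25671 to 28656 in VAD WT replicates 1, 3 and 5, and 15134 and 15022 in replicates 2 and 4 (-1.01 ± 0.21, adjusted p = 0.0242). *Krt19*, a keratin of simple and limbal epithelium, gave 12255 to 14321, 5329 to 5546 and 2892 and 2739.7 (-1.70 ± 0.21, adjusted p = 8.45e-04). *Krt14*, the basal cell keratin, fell least (-0.52 ± 0.12, adjusted p = 0.0354). Calls were lost for *Krt13* without any 1 VAS WT library (adjusted p up to 0.0729) and for *Krt14* without any 1 VAS WT library or VAD WT replicate 2 or 3 (adjusted p up to 0.102).

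*Krt16* and *Krt17*, keratins of activated and appendage epithelium, were the members called in the cornified envelope and squamous list (18 tested of 21), both lower. *Krt16* fell from 782 to 1109.8 to 184, 162 and 231 in VAD WT replicates 1, 3 and 5 and to 462 and 510.1 in replicates 2 and 4 (-1.80 ± 0.30, adjusted p = 0.00611). *Krt17* fell from 3722 to 4166 to 1385 to 1828 (-1.31 ± 0.09, adjusted p = 8.79e-06). No gene of cornification, such as loricrin (*Lor*, 0.02 ± 0.38, adjusted p = 0.986) or involucrin (*Ivl*, 0.23 ± 0.45, adjusted p = 0.862), was called over all 5 libraries. Corneodesmosin (*Cdsn*), at low values, lay above VAS WT in every VAD WT library, at 23.1 to 58.7 against 6.83 to 21.4 (1.29 ± 0.42, adjusted p = 0.149). The median of the cornified list was 0.10. Without replicates 2 and 4 this list had 6 higher and 2 lower, and with replicates 2 and 4 alone 0 higher and 6 lower. In the surface epithelium list 4 of 21 genes were lower, none higher, and the median was -0.14. Without replicates 2 and 4 it had 12 higher and 5 lower, and with replicates 2 and 4 alone 0 higher and 18 lower. Beside both lists, 18.3% of all genes were higher and 18.5% lower in the first of these fits, and 16.6% and 16.3% in the second. *Krt5*, the partner of *Krt14*, was not called. It stood at 169775 to 205231 in VAS WT, 310470.0 to 313149 in VAD WT replicates 1, 3 and 5, and 111493 and 112484 in replicates 2 and 4. The called keratins *Krt13*, *Krt14*, *Krt16*, *Krt17* and *Krt19* lie together on chromosome 11, and *Krt4* and *Krt8* on chromosome 15, where the type I and type II keratin clusters are. The level of corneal markers moved strongly in these same libraries, as the list sums show, and its part in these falls was not tested.

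**Figure D2:**
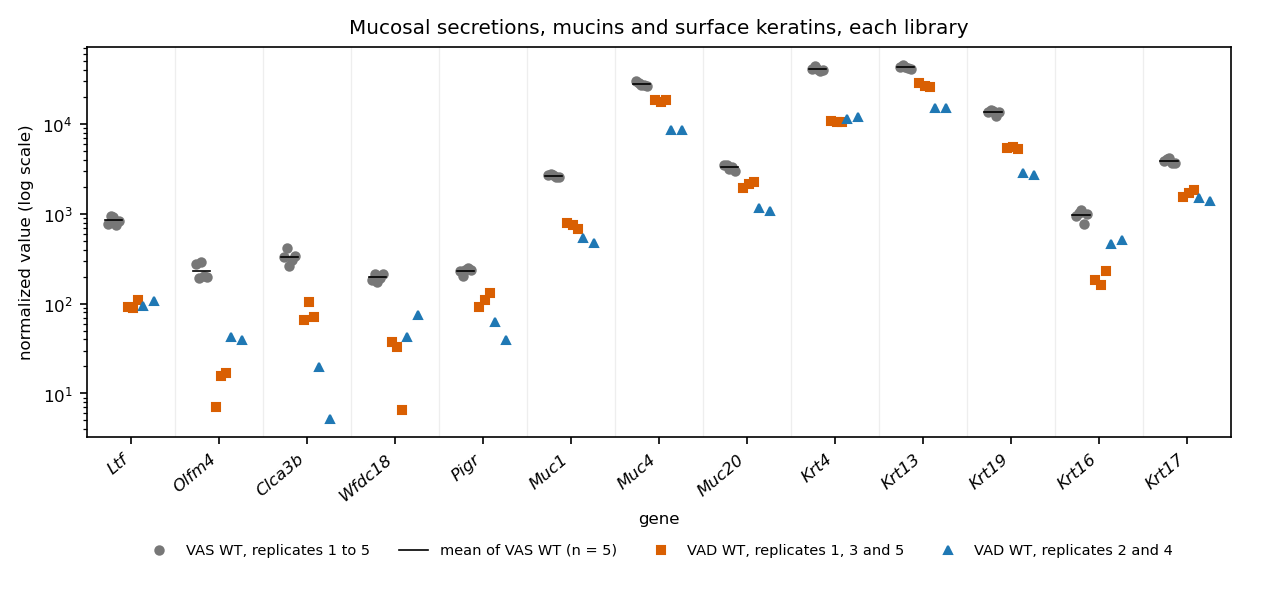
Normalized value (log scale) of 13 genes of mucosal secretion, mucin and keratin lists in each library. Circles are the 5 VAS WT libraries with a bar at their mean, squares VAD WT replicates 1, 3 and 5, triangles VAD WT replicates 2 and 4. For every gene all 5 VAD WT points lie below all VAS WT points. *Ltf* and *Krt4* are level across the 5 VAD WT libraries, while *Muc4*, *Muc20*, *Krt13* and *Krt19* are lower in replicates 2 and 4.

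Other genes among the largest falls had varied roles. *Alox15*, a lipoxygenase that makes lipid mediators and belongs to epithelia and macrophages, was 2477, 2392, 2321, 1889.7 and 2366 in VAS WT and 382, 608, 214, 651 and 247 in VAD WT (-2.58 ± 0.28, adjusted p = 3.78e-04). *Pglyrp4*, a secreted peptidoglycan recognition protein that binds bacterial walls, was 524, 499.7, 575, 512 and 469 and 71.9, 96.8, 159, 121 and 233 (-2.03 ± 0.26, adjusted p = 0.0013). *Has2*, a hyaluronan synthase, fell from 199 to 298 to 24.7 to 76.6 (-2.02 ± 0.31, adjusted p = 0.00377). The epithelial calcium channel *Trpv6* fell from 229 to 264 to 33.4 to 136 (-2.01 ± 0.33, adjusted p = 0.00592). *Sectm1b* (-2.25), the calpain *Capn13* (-1.96), the tetraspanin *Tspan1* (-1.96), the fucosyltransferase *Fut9* (-1.93) and an unnamed Rik model completed the 15 largest falls without overlap, with log2 fold changes in parentheses. The call was lost for *Sectm1b* without VAS WT replicate 1 or 2 (adjusted p up to 0.0561). By the fit without replicates 2 and 4, among genes called there, in the 10 libraries and in all 20, the 10 largest falls also took in the alpha-2C adrenergic receptor *Adra2c*, the amino acid transporter partner *Tmem27* and the Wnt inhibitor *Sfrp5*. *Tmem27* was 1148 to 1454 in VAS WT, 266, 302 and 240.5 in VAD WT replicates 1, 3 and 5, and 704 and 532 in replicates 2 and 4. *Adra2c* and *Sfrp5* had log2 fold changes of -2.27 and -2.35 in that fit and of -1.59 and -1.77 with all 5 libraries. With all 5 the call was lost for *Adra2c* without any 1 VAS WT library or VAD WT replicate 1, 3 or 5 (adjusted p up to 0.111). It was also lost for *Sfrp5* without any 1 VAS WT library or VAD WT replicate 1 (adjusted p up to 0.0858).

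Some genes of retinol uptake and storage fell, each in all 5 VAD WT libraries. *Stra6* itself (chr9:58063788-58153996) was 2661, 2742, 2414, 2449 and 2689 in VAS WT and 693, 1340.1, 697, 1529 and 669 in VAD WT, in replicate order (-1.49 ± 0.23, adjusted p = 0.00363). It was lowest in replicates 1, 3 and 5, and replicates 2 and 4 lay between these and VAS WT. *Ttr*, transthyretin, which carries the retinol-binding protein and is made by the RPE, was 48271, 50347, 51070.1, 47574 and 55894 in VAS WT and 12105, 21081, 13048, 19972 and 13495 in VAD WT (-1.70 ± 0.19, adjusted p = 3.78e-04).

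*Lrp2*, megalin, an endocytic receptor for carrier proteins, fell from 614 to 759 to 199 to 322 with replicates 2 and 4 level with the others (-1.41 ± 0.14, adjusted p = 1.51e-04). Lipoprotein lipase (*Lpl*), which frees retinyl esters taken up with lipoproteins, fell from 927 to 1076 to 659, 834 and 646 in replicates 1, 3 and 5 and to 473 and 448 in replicates 2 and 4 (-0.72 ± 0.16, adjusted p = 0.0279). Its call was lost for *Lpl* without any 1 VAS WT library (adjusted p up to 0.0879). In all, 5 of 15 uptake and binding genes were lower and none higher, where 2.21% of all genes were lower. The list median was 0.01. Without replicates 2 and 4 the list had 1 higher and 9 lower, and with these as the only VAD WT libraries 3 and 5. In these fits 18.3% and 16.6% of all genes were higher and 18.5% and 16.3% lower. The list sum was 78335 to 89373 in VAS WT, 32159.9 to 34247 in replicates 1, 3 and 5, and 60096 and 59815 in replicates 2 and 4. Most of this sum in VAS WT was *Ttr*, so it does not stand for the other members. *Rbp3*, the retinoid carrier between RPE and photoreceptors, which is made by photoreceptors, was not called. It stood at 6379 to 7482 in VAS WT, 4607 to 4837 in replicates 1, 3 and 5, and 17086 and 17354 in replicates 2 and 4.

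In the visual cycle list 4 of 12 genes were called, all lower, where 2.21% of all genes were lower. The list median was -1.05. Without replicates 2 and 4, 11 were lower, and with replicates 2 and 4 alone 5 were lower and 1 higher. Of all genes, 18.5% were lower in the first of these fits, and 16.3% were lower and 16.6% higher in the second. *Rdh5*, the 11-cis-retinol dehydrogenase of the last step in the RPE, was 10542, 10261, 10361, 8958 and 10216 in VAS WT and 2646, 3354, 2761, 3382 and 2711 in VAD WT (-1.77 ± 0.10, adjusted p = 5.20e-06). This fall of 3.40-fold was close to equal across the 5 libraries. *Rgr*, the RPE retinal G protein-coupled receptor, fell from 29693, 28307, 30999, 27735 and 32069 to 7157, 13208, 7039, 12468 and 7691 (-1.70 ± 0.19, adjusted p = 5.15e-04). The opsin *Rrh*, peropsin, fell from 598 to 813 to 259 to 378 (-1.11 ± 0.14, adjusted p = 0.00103). *Lrat* was the fourth.

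*Rpe65*, the isomerase at the centre of the cycle, was not among them. It was 4076, 3908, 4288, 4024 and 4595 in VAS WT, 1503, 1545 and 1107 in VAD WT replicates 1, 3 and 5, and 3908 and 3945 in replicates 2 and 4 (-0.998 ± 0.32, adjusted p = 0.141). Replicates 1, 3 and 5 were thus low, and replicates 2 and 4 lay at the lower edge of the VAS WT range. *Rlbp1*, the retinaldehyde-binding protein of RPE and Müller glia, was 9656 to 11809, 3597 to 3954 and 9287 and 9167 in the same order (-0.97 ± 0.28, adjusted p = 0.0956). The retinol dehydrogenase *Rdh10* was 1217 to 1458, 235 to 355 and 1181 and 1418 (-1.32 ± 0.44, adjusted p = 0.161). *Rpe65*, *Rlbp1* and *Rdh10* therefore separated replicates 1, 3 and 5 from replicates 2 and 4, while *Rdh5* did so little.

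The receptors and enzymes of retinoic acid gave no call. None of 6 retinoic acid and retinoid X receptor genes (median -0.04) and none of 14 tested genes of retinoic acid synthesis and breakdown (median -0.38) passed limma's test over all 5 libraries. At an unadjusted p under 0.05 in limma these lists had 1 and 6 genes, beside 2724 of all 18309. For the same lists edgeR called none in either, and DESeq2 called 0 and 5. The retinaldehyde dehydrogenase *Aldh1a1*, which makes retinoic acid and is also abundant in cornea, lay above the VAS WT range in all 5 VAD WT libraries. Its values were 1733 to 2063 in VAS WT and 4014, 2090.0, 3828, 2124 and 3728 in VAD WT, and it missed the threshold (0.70 ± 0.19, adjusted p = 0.0772). Where 2.21% of all genes were lower, 3 of 12 in the retinoic acid response list were, *Stra6* and *Lrat* among them, and none was higher. Without replicates 2 and 4 the list had 1 higher and 9 lower, and with these as the only VAD WT libraries 3 and 5. In these fits 18.3% and 16.6% of all genes were higher and 18.5% and 16.3% lower.

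**Figure D3:**
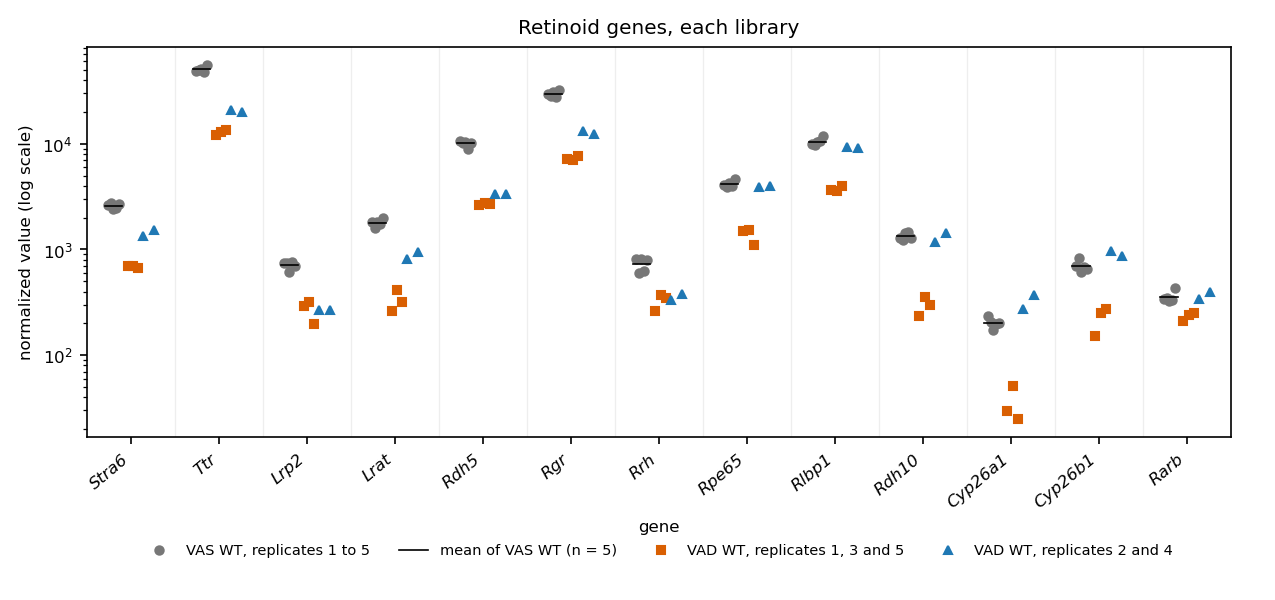
Normalized value (log scale) of 13 genes of retinoid uptake, the visual cycle and retinoic acid breakdown and response in each library, with the same symbols as for the mucosal genes. From *Stra6* to *Rrh* all VAD WT points lie below VAS WT. For *Rpe65*, *Rdh10*, *Cyp26a1*, *Cyp26b1* and *Rarb* the triangles of replicates 2 and 4 lie near or above VAS WT while the squares of replicates 1, 3 and 5 lie below.

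Beyond retinoid genes, 11 of 20 RPE genes were lower and none higher (median -0.74), where 2.21% of all genes were lower. The list was drawn up with results of these data known, so its share is not ranked against other lists. Without replicates 2 and 4, 16 of the 20 were lower and 2 higher, and with replicates 2 and 4 alone 13 were lower and 1 higher. In these fits 18.5% and 16.3% of all genes were lower, and 18.3% and 16.6% higher. *Slc16a8*, the basolateral lactate transporter of the RPE, was 7238, 7759, 7325, 7129 and 7555 in VAS WT and 2535, 2503, 2967, 2721 and 3032 in VAD WT (-1.43 ± 0.08, adjusted p = 5.20e-06). *Trf*, transferrin, was 34854 to 40744 in VAS WT, 8868, 8919 and 8375 in VAD WT replicates 1, 3 and 5, and 18581 and 18194 in replicates 2 and 4 (-1.64 ± 0.24, adjusted p = 0.00319). *Krt8* and *Krt18*, the keratin pair of simple epithelium, fell with log2 fold changes of -1.76 and -0.84. The potassium channel *Kcnj13* went from 1146 to 1500.1 to 472 to 569 in replicates 1, 3 and 5 and to 912 and 846 in replicates 2 and 4. The bicarbonate cotransporter *Slc4a5* went from 3159 to 3420.3 to 1496 to 2236, and the glucose transporter *Slc2a1* from 6885 to 7513 to 4218 to 5668. *Otx2*, a transcription factor of RPE identity, fell less (-0.66 ± 0.10, adjusted p = 0.00363). *Enpp2*, *Slc6a20a* and *Sox9* were the other called members, and among all 11 a call was lost for *Sox9* without any 1 VAS WT library or VAD WT replicate 3 (adjusted p up to 0.1) alone.

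Pigment genes gave fewer calls than the RPE list. In the melanosome list only *Gpr143*, a receptor of pigment cells that controls melanosome size, was called of 12 (-1.05 ± 0.24, adjusted p = 0.034). This call was lost for *Gpr143* without any 1 VAS WT library or VAD WT replicate 1, 3 or 5 (adjusted p up to 0.106). The list median was -0.60, and, beside 2724 of all 18309 genes, 10 of the 12 had an unadjusted p under 0.05 in limma. Without replicates 2 and 4, 11 were lower and 0 higher, where 18.5% of all genes were lower. With replicates 2 and 4 alone 1 was lower and 1 higher. With all 20 libraries in the fit 7 were lower, where 5.68% of all genes were. Tyrosinase (*Tyr*), the first enzyme of melanin synthesis, was 727 to 965 in VAS WT, 321, 362 and 283 in VAD WT replicates 1, 3 and 5, and 821 and 1012 in replicates 2 and 4. The summed melanosome level was 68085 to 73170.4 in VAS WT, 32318 to 34906 in replicates 1, 3 and 5, and 74618 and 73675 in replicates 2 and 4. Replicates 2 and 4 were thus not below VAS WT. The summed RPE level was below VAS WT in both sets, at 88289 to 96355 in VAS WT, 47892 to 48618 in replicates 1, 3 and 5, and 66908 and 66443 in replicates 2 and 4.

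Fewer genes rose, and several of them encode extracellular matrix proteins. Where 0.819% of all genes were higher, 6 of 20 listed collagen genes were, and none was lower (median 0.50). Without replicates 2 and 4, 10 were higher and 7 lower, and with replicates 2 and 4 alone 17 were higher and 2 lower. Of all genes, 18.3% were higher and 18.5% lower in the first of these fits, and 16.6% and 16.3% in the second. All 3 type VI chains rose. *Col6a3* (chr1:90765923-90843971) was 1120.1, 1196, 1173, 1127 and 1174 in VAS WT and 2423, 3236, 2333, 3409 and 2663 in VAD WT (1.26 ± 0.11, adjusted p = 7.05e-05). *Col6a1* went from 2392 to 2808 to 3829 to 4407 in replicates 1, 3 and 5 and to 5472 and 5619.7 in replicates 2 and 4 (0.88 ± 0.12, adjusted p = 0.00136). *Col6a2* went from 1388 to 1621 to 2203, 2547 and 2301 and to 3500.1 and 3522 in the same order (0.89 ± 0.14, adjusted p = 0.00478). *Col5a2*, a chain of the collagen that sets fibril width, was 814, 919.7, 766, 865 and 745 in VAS WT and 1418, 1308, 1369, 1464 and 1464 in VAD WT (0.78 ± 0.08, adjusted p = 3.78e-04). All 5 VAD WT libraries lay close together. *Col5a1* rose by 0.56 on the log2 scale, and its call was lost for *Col5a1* without VAS WT replicate 3, 4 or 5 (adjusted p up to 0.0588).

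*Col1a1*, the main fibrillar collagen chain, also rose, but by unequal amounts. It was 6456 to 7508 in VAS WT, 11869, 12984 and 11859 in VAD WT replicates 1, 3 and 5, and 34989.9 and 38362 in replicates 2 and 4 (1.44 ± 0.33, adjusted p = 0.0382). The call was lost for *Col1a1* without any 1 VAS WT library (adjusted p up to 0.104). Its partner chain *Col1a2* did not pass the test. It was 6969 to 7301 in VAS WT, 8850.2 to 8984 in replicates 1, 3 and 5, and 34204 and 35162 in replicates 2 and 4 (1.11 ± 0.40, adjusted p = 0.198). *Matn4*, matrilin 4, a linker of matrix filaments, was 824, 1019, 758, 943 and 922 in VAS WT and 2346, 2136, 2694, 2369.9 and 2523 in VAD WT (1.44 ± 0.10, adjusted p = 9.11e-06). *Dpt*, dermatopontin, which binds decorin and collagen, rose from 279 to 321 to 742, 735 and 798 in replicates 1, 3 and 5 and to 609.8 and 523 in replicates 2 and 4 (1.16 ± 0.13, adjusted p = 4.03e-04). *Smoc2*, a secreted calcium-binding matrix protein, rose from 246 to 377 to 490.4, 441 and 603 and to 849 and 1035 in the same order (1.15 ± 0.23, adjusted p = 0.018). The latter call was lost for *Smoc2* without VAS WT replicate 3 or 5 (adjusted p up to 0.0614).

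*Angptl7*, an angiopoietin-like protein of cornea, sclera and outflow tissue (chr4:148495183-148500460), had the largest rise after *Xist*. It went from 496, 472, 485, 617 and 458 in VAS WT to 1273, 5254, 1578, 4699.7 and 1634 in VAD WT (2.26 ± 0.36, adjusted p = 0.0052) and was highest in replicates 2 and 4. *Kera*, keratocan, the corneal stroma proteoglycan, went the other way within VAD WT. It was 578 to 643 in VAS WT, 2721, 2716 and 2620.4 in replicates 1, 3 and 5, and 892 and 809 in replicates 2 and 4 (1.44 ± 0.34, adjusted p = 0.0429). *Tsc22d3*, which is induced by glucocorticoids, was 1476 to 1707, 2904, 2880.3 and 3053 and 7463 and 6975 in that order (1.40 ± 0.27, adjusted p = 0.0146). *Cpne7*, a copine, rose from 139 to 287 to 681, 772 and 828 in replicates 1, 3 and 5 and to 384 and 431 in replicates 2 and 4 (1.59 on the log2 scale). The kinase *Map3k6* rose from 512 to 692 to 1144 to 1477. The dipeptidase *Dpep1* rose from 174 to 277 to 434, 399 and 372 in replicates 1, 3 and 5 and to 1009 and 964 in replicates 2 and 4. *Ooep*, *Zfp647*, *Erdr1* and *Frmd7* were the other rises named by the rule, with log2 fold changes of 1.34, 1.29, 1.24 and 1.07. Among these rises calls were lost for *Kera* without any 1 VAS WT library or VAD WT replicate 1, 3 or 5 (adjusted p up to 0.111), for *Dpep1* without VAS WT replicate 1, 3, 4 or 5 (adjusted p up to 0.074) and for *Zfp647* without VAS WT replicate 1 or 3 or VAD WT replicate 3 (adjusted p up to 0.0728). The same held for *Erdr1* without any 1 VAS WT library or VAD WT replicate 1, 3 or 5 (adjusted p up to 0.117) and for *Frmd7* without any 1 VAS WT library or VAD WT replicate 1, 3 or 5 (adjusted p up to 0.113).

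Thrombospondin and tendon genes followed the split, and none of 13 was called (median 0.58). *Thbs4*, thrombospondin 4, a matrix protein of tendon and sclera, was 1056, 1002, 1092, 1099 and 1198 in VAS WT and 1042, 1066 and 1074 in VAD WT replicates 1, 3 and 5. All 3 lay inside the VAS WT range. Replicates 2 and 4 stood at 12507 and 12257. The fit over 5 libraries gave 1.38 ± 0.71, adjusted p = 0.4, which stands for neither set of libraries. At an unadjusted p under 0.05 in limma the list had 2 genes, beside 2724 of all 18309. In the list edgeR and DESeq2 called 0 and 3. *Comp*, cartilage oligomeric matrix protein, was 448 to 671 in VAS WT, 369, 455 and 491 in replicates 1, 3 and 5, and 3688 and 3839 in replicates 2 and 4. Fibromodulin (*Fmod*) was 5788 to 6476, 3836, 4692 and 4001 and 18578 and 18444 in that order. Decorin (*Dcn*) and other small leucine-rich proteoglycans were likewise high in replicates 2 and 4. There the list sum was 114763 and 115249 against 42687 to 45355 in VAS WT and 40042 to 41486 in replicates 1, 3 and 5. The matrix genes that rose in all 5 libraries thus lay beside others that were high in 2 libraries alone, and the part of scleral or tendon tissue in the rises was not tested.

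**Figure D4:**
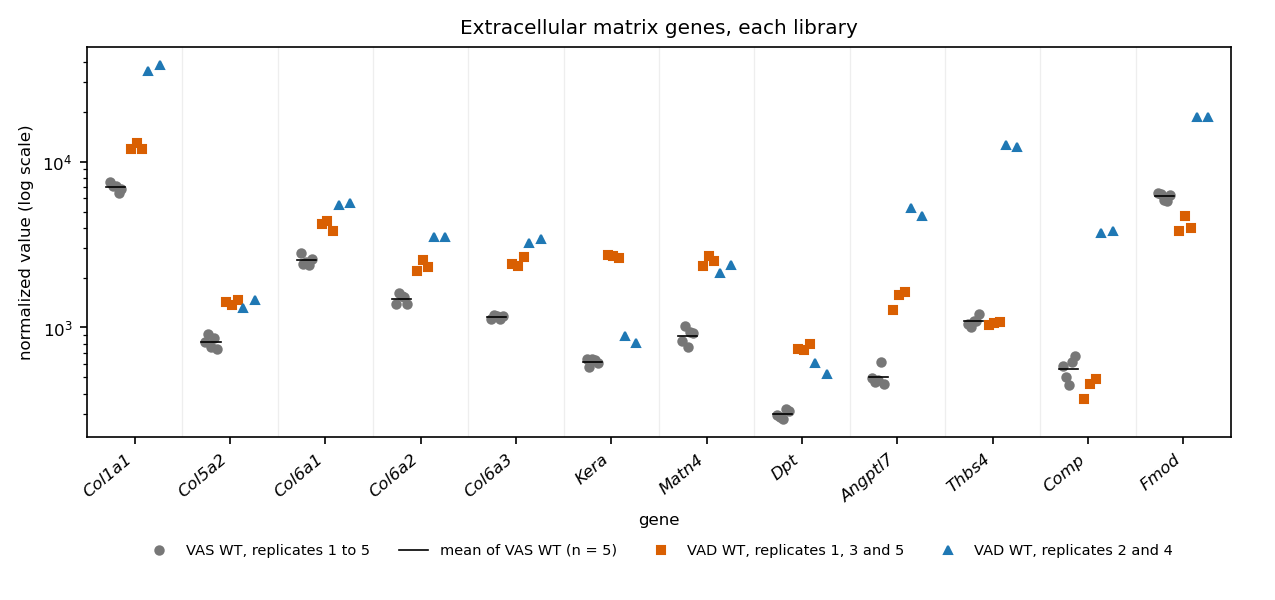
Normalized value (log scale) of 12 extracellular matrix genes in each library, with the same symbols as for the mucosal genes. The genes from *Col1a1* to *Angptl7* lie above VAS WT in all 5 VAD WT libraries; *Thbs4*, *Comp* and *Fmod* are high in replicates 2 and 4 (triangles) alone.

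Markers of other tissues put replicates 1, 3 and 5 and replicates 2 and 4 on opposite sides of VAS WT. The summed level of 6 corneal genes was 308614 to 407975 in VAS WT, 793237 to 820148 in replicates 1, 3 and 5, and 244617 and 240985 in replicates 2 and 4. *Krt12* within it was 157795, 172162, 157376, 194875 and 142834 in VAS WT and 400653, 114762, 381262, 113908 and 384665 in VAD WT, in replicate order. The summed level of 20 rod genes ran in the opposite direction, with 186754 to 213563 in VAS WT, 160894 to 167102 in replicates 1, 3 and 5, and 419139 and 416143 in replicates 2 and 4. Red cell transcripts gave 5877 to 6695, 3175 to 3373 and 44884 and 45389, and choroidal endothelium 17732 to 19184, 11741 to 12700.1 and 27872 and 28999, in the same order of sets.

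The only call among 14 endothelial genes was *Cldn5*, a claudin of vessel walls, which fell from 1684 to 1983 to 1103 to 1154 in replicates 1, 3 and 5 and to 1458 and 1469 in replicates 2 and 4 (-0.56 ± 0.10, adjusted p = 0.0138). The sum of the 12 listed lens genes, which leaves out the crystallin *Cryab*, was highest in VAS WT (7318 to 8865). It was lower in replicates 1, 3 and 5 (5860.4 to 6222) and lowest in replicates 2 and 4 (1743 and 1706). None of the 12 was called. *Cryab* was 6047 to 6312 in VAS WT and 4617 to 5824 in VAD WT (-0.23 ± 0.09, adjusted p = 0.265). Extraocular muscle transcripts were 18042 to 21895 in VAS WT, 5919 to 6122 in replicates 1, 3 and 5, and 20931 and 19751 in replicates 2 and 4. Titin (*Ttn*) was the only call of 18, and it was lost for *Ttn* without any 1 VAS WT library or VAD WT replicate 1, 3 or 5 (adjusted p up to 0.108). Cell cycle genes, none of 12 called, were 5560.4 to 5946, 7503 to 7993 and 3113 and 3454. *Mki67*, which marks dividing cells, was 702 to 752 in VAS WT, 1279.8 to 1516 in replicates 1, 3 and 5, and 256 and 241 in replicates 2 and 4. The part of tissue composition in the calls was not tested.

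**Figure D5:**
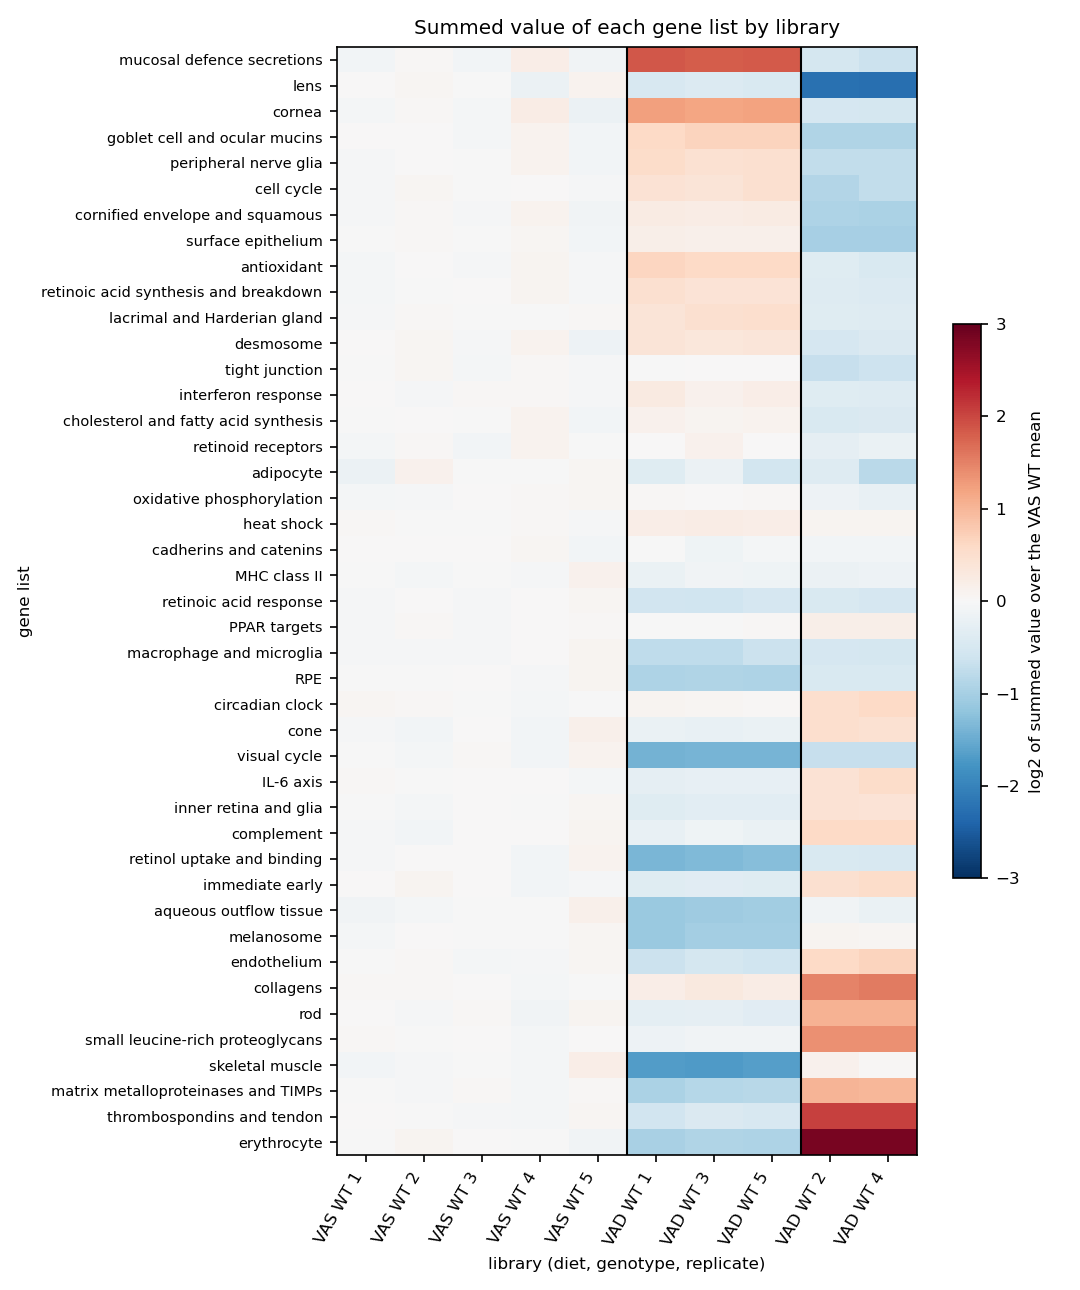
Log2 of the summed normalized value of each of 43 gene lists over its VAS WT mean, by library, with VAS WT on the left, VAD WT replicates 1, 3 and 5 in the middle and replicates 2 and 4 on the right. Lists are ordered by the difference between the right and middle sets. Cornea lies above VAS WT in the middle set and below it on the right, and erythrocyte, tendon and rod lists show the reverse. The sums of the RPE, visual cycle and retinol uptake lists are below VAS WT in both. Most of the VAS WT sum of the retinol uptake list is *Ttr*.

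Immune cell genes fell where they were called over all 5 VAD WT libraries. Where 2.21% of all genes were lower, 4 of 14 in the macrophage and microglia list were, and none was higher (median -0.40). Without replicates 2 and 4, 1 was higher and 9 lower, and with replicates 2 and 4 alone 2 were higher and 8 lower. Of all genes, 18.3% were higher and 18.5% lower in the first of these fits, and 16.6% and 16.3% in the second. The macrophage gene *Cd163* was not called but went the other way, at 25.4 to 52.9 in VAS WT and 48.3 to 138 in VAD WT (1.16 ± 0.33, adjusted p = 0.0911). *Itgam*, an integrin of myeloid cells, was 2041, 2194, 2046, 2074 and 1986 in VAS WT and 1160.1, 655, 1121, 762 and 1153 in VAD WT (-1.13 ± 0.16, adjusted p = 0.00213). *Lyz2*, lysozyme of macrophages, was 3426 to 4085 in VAS WT, 1166, 956 and 1149 in replicates 1, 3 and 5, and 2711 and 2622 in replicates 2 and 4 (-1.23 ± 0.27, adjusted p = 0.0313). The replicate sets thus ranked oppositely in *Itgam* and *Lyz2*. *Cd68* and the complement subunit *C1qc* fell with log2 fold changes of -0.51 and -0.46. In this list calls were lost for *Lyz2* without any 1 VAS WT library or VAD WT replicate 1, 3 or 5 (adjusted p up to 0.09), and also for *Cd68* without VAS WT replicate 1, 2, 4 or 5 (adjusted p up to 0.0777). The same held for *C1qc* without VAS WT replicate 2, 3, 4 or 5 or VAD WT replicate 1 or 3 (adjusted p up to 0.0755). The interferon-induced GTPase *Gbp2* was the 1 call of 14 interferon genes, at 711 to 796 in VAS WT and 569, 427, 370.3, 427 and 409 in VAD WT (-0.78 ± 0.12, adjusted p = 0.00389).

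Photoreceptor, inner retina and glia genes showed few calls over all 5 VAD WT libraries. Without replicates 2 and 4, rod genes gave 1 higher and 14 lower, cone genes 2 and 5, and inner retina and glia genes 1 and 12. With replicates 2 and 4 alone they gave 20 and 0, 6 and 0, and 10 and 3. Of all genes, 18.3% were higher and 18.5% lower in the first of these fits, and 16.6% and 16.3% in the second. *Guca1a*, the guanylate cyclase activator of photoreceptors, was the 1 call of 20 rod genes. It went from 4825 to 5424 in VAS WT to 5992 to 7037 in VAD WT (0.34 ± 0.08, adjusted p = 0.0489) and was higher in replicates 1, 3 and 5 although the rod sum was low there. Its call was lost for *Guca1a* without any 1 of the 10 libraries (adjusted p up to 0.144). None of 14 cone genes was called (median 0.00). Cone arrestin (*Arr3*) lay above VAS WT in every VAD WT library, at 546 to 677 against 389 to 512 (0.42 ± 0.11, adjusted p = 0.0638). The calls among 18 inner retina and glia genes were 2 amino acid transporters, and both fell. They were *Slc6a9* for glycine (-0.45 ± 0.08, adjusted p = 0.00694) and *Slc1a3* for glutamate (-0.42 ± 0.08, adjusted p = 0.0182). The latter call was lost for *Slc1a3* without VAS WT replicate 1, 2 or 3 (adjusted p up to 0.0666).

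Junction genes were mostly not called. *Cldn23* (-0.96 ± 0.22, adjusted p = 0.0372) and *Cldn5* were lower of 16 tight junction genes, and *Dsg2* (-0.71 ± 0.13, adjusted p = 0.0129) of 11 desmosome genes. P-cadherin (*Cdh3*, -1.47 ± 0.27, adjusted p = 0.0106) and *Ctnnd1* (-0.43 ± 0.09, adjusted p = 0.0178) were lower of 7 cadherins and catenins. Beside 2724 of all 18309 genes, 8 of the 16 tight junction genes had an unadjusted p under 0.05 in limma. The median of these 16 was -0.34. Without replicates 2 and 4, 4 of these were higher and 6 lower, and with replicates 2 and 4 alone 0 and 14. Desmosome genes gave 6 higher and 2 lower, then 0 and 9. Of all genes, 18.3% were higher and 18.5% lower in the first fit, and 16.6% and 16.3% in the second. *Cldn23* was 1566 to 1742 in VAS WT, 1181, 1119 and 1044 in replicates 1, 3 and 5, and 505 and 597 in replicates 2 and 4, and *Cdh3* was 539 to 693, 141, 136 and 213 and 313 and 387. Calls were lost here for *Cldn23* without any 1 VAS WT library (adjusted p up to 0.104) and *Ctnnd1* without VAS WT replicate 1, 2, 3 or 4 (adjusted p up to 0.0635). The claudins *Cldn19* and *Cldn10* were below VAS WT in every VAD WT library but were not called. *Cldn19* was 287 to 315 in VAS WT and 105 to 253 in VAD WT (-0.85 ± 0.24, adjusted p = 0.099). *Cldn10* was 174 to 271 and 151 to 169 (-0.51 ± 0.16, adjusted p = 0.138). *Ptgds*, prostaglandin D synthase, a retinoid-binding protein secreted around the retina, fell from 88636, 91534, 93868, 94757 and 106181 to 39922, 46195, 40679.7, 43979 and 41179 (-1.16 ± 0.19, adjusted p = 0.00509). With the rise of *Angptl7* it made the 2 calls of 9 aqueous outflow genes.

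Single calls came from further lists. The clock gene *Hlf* was higher (0.54 ± 0.11, adjusted p = 0.026). The glutathione peroxidase *Gpx2* (-1.82 ± 0.42, adjusted p = 0.0382) and the acid phosphatase *Acpp* (-0.59 ± 0.14, adjusted p = 0.0389) were lower. These calls were lost for *Hlf* without any 1 VAS WT library or VAD WT replicate 1, 3 or 5 (adjusted p up to 0.0821), for *Gpx2* without any 1 VAS WT library or VAD WT replicate 3, 4 or 5 (adjusted p up to 0.115) and for *Acpp* without any 1 VAS WT library or VAD WT replicate 1 or 4 (adjusted p up to 0.113). In limma's test no gene passed in the lists of immediate early genes, heat shock, PPAR targets, oxidative phosphorylation, the IL-6 axis, MHC class II, complement, matrix metalloproteinases and TIMPs, or adipocyte genes. Over all genes 2724 of 18309 had an unadjusted p under 0.05 in limma. The 16 lists without a call held 181 entries, of which 43 did. Of these entries edgeR called none and DESeq2 19. Some of these lists nevertheless differed between the VAD WT sets. *Egr1*, an immediate early transcription factor, was 3008 to 3278 in VAS WT, 668 to 755 in replicates 1, 3 and 5, and 4588 and 4363 in replicates 2 and 4. In all, 11 of 548 listed genes tested were higher and 53 lower, and 14 more had too few reads or no entry. Since the lists were drawn up with results of these data known, these shares are not set against the 3.03% of all genes as a result.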

How the data were processed

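RNA-seq of RPE-choroid from 10 WT libraries was analysed, 5 per diet. Per the labels, reads were processed with STAR 2.5.3a, RSEM 1.2.30 and DESeq2 1.32.0 on GRCm38/mm10; strandedness is not given in the sources used here. The signal deposited by the authors is a gene count divided by 1 size factor per library. In all 10 libraries 100% of values were whole multiples (within 0.01 of a read) of the smallest positive value, so reads were recovered for the filter, the depth and the count tests. Depth was 13331903 to 18764909 reads, with a median of 17340971, and 3 reads set the floor; this covers counting error only.

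Groups followed the labels. limma 3.58.1 in R 4.3.3 was run on log2(value + 1) with an intensity trend over the 10 libraries and genes with at least 5 reads in total; the added 1 understates fold changes of low genes. The spread was not pooled over all 20 libraries because VAD WT is wider. VAS WT and VAD WT still share 1 spread per gene in this fit. It counts the 5 VAD WT libraries as separate replicates although they split into sets. Named genes were the members of 44 lists; in each direction the 15 largest changes among called genes with a mean of at least 100 in a group and no overlap; and in each direction the 10 largest without VAD WT replicates 2 and 4 among genes called there, in the 10 libraries and in all 20. The members, lists and rules were chosen with earlier results of these data known. Listed genes without an entry were 2 (*Flg*, *Muc16*). Alternatives were edgeR 4.0.16 and DESeq2 1.42.0 on the recovered reads, other filters, scalings and pseudocounts, library weights, a replicate block and leaving out libraries. A few listed genes are counted in their lists but not reported here by name. Positions are from GENCODE vM21. Separate mice are stated by the study and not by the labels' fields alone; if libraries were technical, p-values measure only their spread.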

Additional observations from a re-analysis of the deposited data

Results flagged for a closer look

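In 6 groups of 5 libraries 1 library lay far from the other 4, with a gap to the next that exceeded Dixon's 95% critical share of the group's range; chance gives about 1 in 20 groups, and 234 groups were looked at. In VAS WT, replicate 4 was lowest for *Alox15* (1890, next 2321), lowest for *Rdh5* (8958, next 10216) and highest for *Angptl7* (617, next 496), and replicate 5 was highest for *Rarb* (430.2, next 351). In VAD WT, replicate 1 was highest for *Ctnnd1* (4112, next 3668) and for *Gbp2* (569, next 427).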

How the results depend on the processing

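The number of genes called (554; 150 higher and 404 lower) changed most with the libraries and the estimate of spread. It was 1660 (620 higher, 1040 lower) with all 20 libraries in the fit, 6708 (3337, 3371) without VAD WT replicates 2 and 4, 6005 (3029, 2976) without replicates 1, 3 and 5, and 4484 (2180, 2304) with library weights. DESeq2 called 1180 (484, 696) on 10 libraries and 2153 (1066, 1087) with the interaction on 19 (without VAD *Stra6*-/- replicate 1), against 507 (137, 370) by edgeR. Without the intensity trend it was 350, with 73 higher and 277 lower. With a log2 fold change beyond 1 it was 166 (24 and 142). Leaving out each library in turn gave 281 to 694 called, 57 to 196 higher and 224 to 498 lower. Other pseudocounts, filters and TMM scaling gave 548 to 599. The replicate block gave 190 (29, 161); the numbers do not pair the samples, since same-numbered deviations correlated at -0.22 to 0.02 and no library correlated best with its own number, so the block is a shared number only. The cause of these differences was not tested.

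Of 90 called genes named in the text, none changed direction over 24 alternatives. For 542 of all 554 called genes the groups did not overlap. There, leaving out libraries or changing the pseudocount cannot reverse the direction, so its constancy is little support. Of the 90, 58 kept their call with each library left out. The call was lost by 37 under the block, 24 without the intensity trend and 4 by edgeR (*Adra2c*, *Guca1a*, *Lyz2* and *Ttn*). Genes not called, but called in the other direction under an alternative, followed the split. Without replicates 2 and 4 the log2 fold change was -0.36 for *Comp*, 0.54 for *Eif2s3y*, -0.57 for *Fmod*, 0.93 for *Mki67* (0.69 with library weights) and -0.60 for *Rbp3*. With replicates 2 and 4 alone it was 0.66 for *Cyp26a1*, 0.42 for *Cyp26b1*, 0.51 for *Egr1*, -0.52 for *Krt12*, -0.73 for *Krt5*, -0.52 for *Lypd2*, 2.16 for *Muc5ac* and -0.44 for *Slurp1*. Depth limits genes near 3 reads per library, 2.57 to 4.26 in normalized value.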

Other observations

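Gene families counted by symbol after the values had been seen gave the following shares, beside 0.819% of all genes higher and 2.21% lower. Of 344 tested genes of the solute carrier families (Slc), 39 were lower (11.3%) and 1 higher, with a median log2 fold change of -0.15. Of 37 numbered keratin genes 12 were lower (32.4%) and none higher. Of 45 collagen chains 6 were higher (13.3%) and 2 lower, the latter being *Col4a3* and *Col4a4*, basement membrane chains that were 1839.9 to 1981 and 684 to 800.1 in VAS WT and 365 to 888 and 233 to 515 in VAD WT.

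Further called genes were also chosen after their values were seen. *Folr1*, a folate receptor of the RPE, was 1545, 1586, 1539, 1511 and 1743 in VAS WT and 627, 504, 499, 522 and 637 in VAD WT (-1.51 ± 0.10, adjusted p = 6.53e-06). *Jchain*, the joining chain of secreted immunoglobulin A, was 203, 261, 225, 160.0 and 233 and 84.9, 83.4, 92.2, 91.6 and 112 (-1.20 ± 0.19, adjusted p = 0.00456). *Il1rn*, the interleukin-1 receptor antagonist, was 642, 589, 710.0, 711 and 726 and 272, 232, 258, 223 and 328 (-1.37 ± 0.13, adjusted p = 1.11e-04). *Vegfa*, the vessel growth factor secreted by the RPE towards the choroid, was 2903, 2684, 2643, 2408 and 2837 and 1052, 1476, 1138, 1613 and 1149 (-1.08 ± 0.12, adjusted p = 4.74e-04), lowest in replicates 1, 3 and 5. *Fn1*, fibronectin, was 2837, 2782, 2481, 2817 and 2442 and 4762, 6051, 4807, 6360.1 and 4829 (0.996 ± 0.11, adjusted p = 3.61e-04), above the VAS WT range in every library and highest in replicates 2 and 4.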
